A study of Mus musculus with 8 samples.

Results

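The genes described here are 43 genes of DNA replication and of the step from G1 into S phase, followed in mouse bone marrow-derived macrophages (BMM) with and without Cullin 3 and with and without lipopolysaccharide (LPS). They were taken by name from a list of 45 symbols, as the non-control array probes that carry a listed symbol, and 43 symbols were found on 51 probes, among 27968 genes tested. The remaining symbols, Orc6 and Cdc45, are on the array under the older names Orc6l and Cdc45l, so they stand outside the counts and their values are given separately. By role the members fall into 9 origin licensing genes, 4 genes of helicase activation, 5 of the sliding clamp and its loader, 8 of the polymerases and primase, 4 of flap removal, ligation and single-strand binding, 5 of nucleotide supply, 4 of chromatin assembly and replication-coupled ubiquitin ligation, and 4 of the G1/S kinases and their activators.

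RNA of 8 samples was measured on one-colour Agilent arrays. The cells came from the marrow of female mice aged 6 to 8 weeks, of Cullin 3 genotypes labelled wildtype (WT) or knockout (KO), and all were cultured over 6 days with L929-conditioned medium, which supplies the macrophage growth factor CSF1. Cullin 3 is a scaffold protein of ubiquitin ligases, and LPS is the bacterial cell-wall component that activates Toll-like receptor 4. The 4 groups, each of 2 samples, were untreated WT, WT given LPS for 6 hours, untreated KO and KO given LPS for 6 hours. Neither the deleted part of Cul3, nor the means of deletion, nor the origin of the replicates (separate mice, cultures or aliquots) is given in the labels. The p-values therefore reflect the spread within these pairs of samples, and that spread may be technical.

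DNA replication starts when the origin recognition complex, CDC6 and CDT1 load the MCM2 to MCM7 helicase onto chromatin in G1, a step called licensing that geminin blocks later in the cycle. Cyclin E with CDK2 and other kinases then activate the helicase, primase and DNA polymerase alpha start each strand, and polymerases delta and epsilon extend it on the PCNA clamp while ribonucleotide reductase and thymidylate synthase supply nucleotides. Many of these genes are known targets of E2F transcription factors, and macrophages growing in CSF1 divide until activating stimuli such as LPS halt them.

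E2F factors are known to bind the letters TTTCGCGC or TTTGGCGC. Both motifs were searched on both strands in RefSeq windows (GRCm38.p6) running from 250 bases before to 50 bases after an annotated start. Of 22862 genes with a single window, 74.7% had the first base of the gene at that start. Motif positions are relative to the start of the window used. A window was at hand for 35 of the 43 members, and 12 of these 35 (34.3%) held at least 1 motif, against 251 of 27025 genes (0.929%) and 0.813% of 32851 windows in all. The members were chosen as replication genes, many of them known E2F targets. The higher share follows from that choice and is no result of these samples. The 12 were Cdt1, Mcm3, Mcm5, Mcm6, Mcm7, Rfc3, Pola1, Pole2, Lig1, Uhrf1, Dtl and Cdc25a. In Mcm5 and Mcm6 a match on each strand overlapped, and Mcm6 held a further match. The 6 stretches below are those of the motif-holding members with the largest LPS changes in WT, read 5′ to 3′ on the gene's own strand, with the motif in capitals. For Pole2 (chr12:69228162-69228191), Mcm7 (chr5:138171849-138171878), Mcm3 (chr1:20820263-20820292) and Lig1 (chr7:13278841-13278870) the motif lies just inside the annotated start, and 30 bases are shown. In Dtl (chr1:191575545-191575664) and Pola1 (chrX:93632156-93632315) it lies upstream, and 120 and 160 bases are shown. Lig1 is on the plus strand and the others are on the minus strand.
Pole2: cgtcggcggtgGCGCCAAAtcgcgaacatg
Mcm7: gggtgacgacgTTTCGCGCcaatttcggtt
Dtl: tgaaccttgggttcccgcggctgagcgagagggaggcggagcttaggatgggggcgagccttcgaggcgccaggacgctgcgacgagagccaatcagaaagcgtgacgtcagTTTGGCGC
Mcm3: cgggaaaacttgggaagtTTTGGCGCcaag
Pola1: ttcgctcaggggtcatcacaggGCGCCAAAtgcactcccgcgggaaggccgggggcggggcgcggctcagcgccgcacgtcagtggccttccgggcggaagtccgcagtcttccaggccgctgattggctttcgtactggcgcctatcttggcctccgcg
Lig1: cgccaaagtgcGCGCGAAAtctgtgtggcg
A match is a description of the letters and not of a bound site. Of the 12 members with a motif, 8 fell with LPS in WT, 1 (Rfc3) rose and 3 (Cdt1, Mcm6 and Cdc25a) were not called, with a median log2 change of -1.97. Of the 23 members whose window held none, 16 fell, with a median of -1.29. Most members thus fell in both sets, and whether the motif goes with the LPS change was not tested. The letters CCAAT, another common promoter element, stood on either strand in the windows of 21 members (60%), against 41.1% of genes.

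Levels below are log2 processed signals relative to the 75th percentile of the same array, and every difference is on this log2 scale with its standard error (SE). Levels of different probes cannot be set against each other. A gene is called where the adjusted p of limma's moderated test, fitted to all 8 arrays with Benjamini-Hochberg adjustment over all genes, is under 0.05. All 43 members passed the filter on dim probes, and 39 were well above background on all 8 arrays. The exceptions were Cdc6, Dtl and Ccne2, which were dim on some or all LPS arrays (Ccne2 also on 1 untreated KO array), and Tyms, whose spot was flagged as an outlier on the array of untreated KO replicate 1, so that its untreated KO level rests on 1 sample. Across all genes the median log2 difference was 0.32 for LPS in WT, 0.21 for LPS in KO, 0.05 and -0.08 for KO against WT without and with LPS, and -0.11 for the difference between the LPS responses.

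The arrays shared 1 slide and 1 scan. WT arrays lay in 1 slide row and KO arrays in the other, and the columns of untreated arrays differed from those of LPS arrays, so slide position cannot be told apart from genotype or LPS. The 75th percentile of the processed signal was 973 to 1285 on untreated and 553 to 769 on LPS arrays, and the correlation of the replicates over genes (not independent points) was 0.992 to 0.995. Cul3 itself stood at 2.04 and 2.08 in untreated WT, 1.65 and 1.55 in untreated KO, 2.69 and 2.72 in WT with LPS and 2.22 and 2.15 in KO with LPS. KO samples were lower than WT samples in both states, by a log2 difference of -0.46 ± 0.11 without LPS (limma adjusted p = 0.0905) and -0.52 ± 0.11 with it (adjusted p = 0.0305). Of 11 macrophage markers on the array, 9 were well above background on all 8 arrays, and Cd163 on none. Their summed level, on a linear scale where 1 is the array's 75th percentile, was 1314.6 and 1224.5 in untreated WT and 1118.1 and 879.4 in untreated KO. With LPS it was 1894.8 and 1878.3 in WT and 1647.2 and 1693.8 in KO, so KO was lower in both states. Of 10 tested markers, 6 were higher and 4 lower in KO by sign without LPS, and 2 and 8 with LPS.

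Exposure to LPS lowered most of the replication genes in both genotypes. In WT, 30 of the 43 members fell and 4 rose, and the median log2 change over the members was -1.44, whereas 58.3% of all genes tested were called, 36.5% higher and 21.8% lower. In KO, 31 members fell and 4 rose with a median of -1.30, against 49% of all genes called, 28.7% higher and 20.4% lower. The same 30 genes fell in both genotypes. The untreated and LPS samples did not overlap for 39 members in WT and 41 in KO, against 78.4% and 79.5% of all genes. Tyms and Ccne1 rose in both, Mcm10 and Rfc3 were called in WT alone, and Gins1, Pola2 and Cdc25a in KO alone. Cdt1, Mcm6, Gins3, Pcna, Rfc5 and Ccne2 were called in neither. Leaving out each array in turn kept 33 of the 34 WT calls in every fit, the exception being Fen1 without untreated WT replicate 1. In KO 29 of the 35 were kept in every fit, and the calls of Gins1, Pold2, Fen1, Rpa2, Tyms and Uhrf1 were lost without at least 1 of the KO samples. As the samples are bulk RNA, fewer cells in cycle and less RNA of these genes per cell cannot be told apart.

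**Figure D1:**
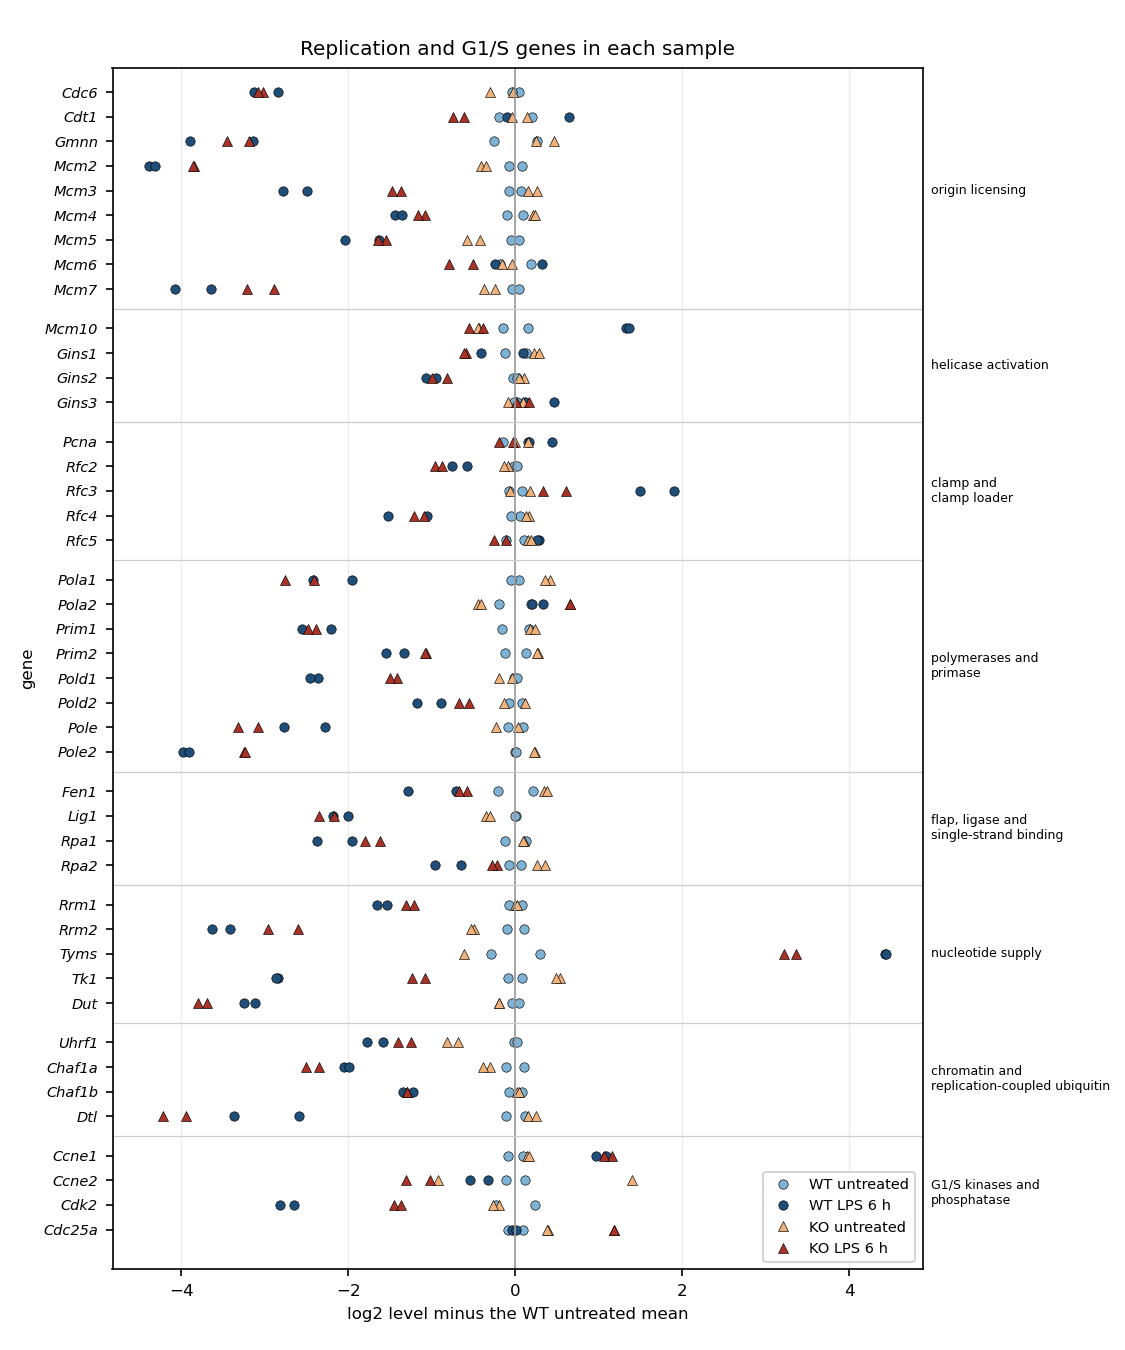
Log2 level of each of the 43 genes in each of the 8 samples, as the difference from the mean of the untreated WT samples (x axis), with genes in rows by role (y axis), circles for WT and triangles for KO, pale for untreated and dark for LPS. For most genes the dark symbols lie to the left of the pale ones, Mcm2 reaching the lowest values and Tyms the highest.

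**Figure D2:**
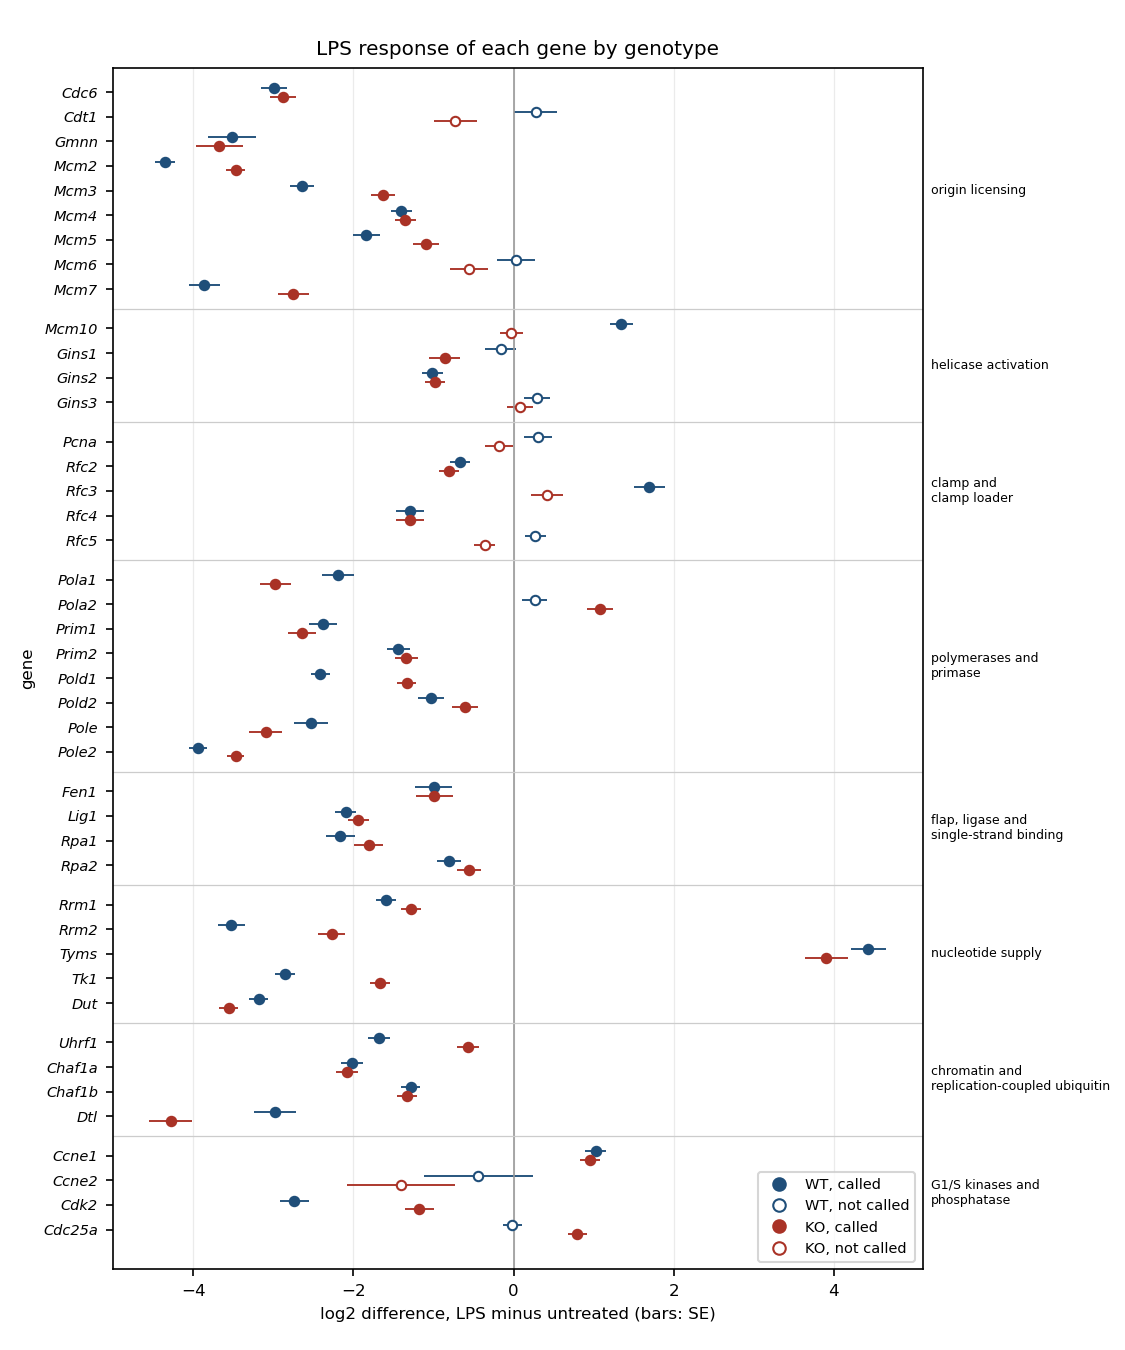
Log2 difference between LPS and untreated samples (x axis) for each gene (y axis) in WT (blue) and KO (red), with bars of 1 SE and filled symbols for called genes. Values run from -4.35 for Mcm2 in WT to 4.43 for Tyms in WT.

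Mcm2, an origin licensing gene, had the deepest fall of all members in WT. With LPS 7 of the 9 fell in each genotype, and their median log2 change was -2.64 in WT and -1.63 in KO. Mcm2 encodes a subunit of the helicase ring (probe at chr6:88833619-88833678 of mm9, as all probe positions here). Its level stood at 2.08 and 1.92 in untreated WT, 1.59 and 1.66 in untreated KO, -2.38 and -2.32 in WT with LPS and -1.85 and -1.85 in KO with LPS. Its untreated and LPS samples were far apart, and with LPS both KO samples lay above both WT samples. The fall was -4.35 ± 0.12 in WT, or 20.4-fold, and -3.47 ± 0.12 in KO, or 11.1-fold (limma adjusted p = 2.09e-06 and 6.44e-06). Mcm7, another ring subunit (chr5:138605925-138605984), went from 2.39 and 2.48 to -1.21 and -1.64 in WT and from 2.20 and 2.06 to -0.78 and -0.46 in KO. Its changes were -3.86 ± 0.19 and -2.75 ± 0.19, and it too was higher in KO than in WT with LPS, by 0.81 ± 0.19 (limma adjusted p = 0.0372). Mcm3 (chr1:20793136-20793195) was measured at 4.97 and 4.83 in untreated WT, 5.04 and 5.16 in untreated KO, 2.11 and 2.41 in WT with LPS and 3.53 and 3.42 in KO with LPS. Only the LPS samples separated clearly by genotype, KO over WT by 1.21 ± 0.15 or 2.32-fold (limma adjusted p = 0.00562), and a second Mcm3 probe gave 1.23.

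The other ring subunits were less uniform. Mcm4 fell by 1.40 ± 0.13 in WT and by 1.35 ± 0.13 in KO, and Mcm5 by 1.84 ± 0.17 and 1.09 ± 0.17. Mcm6 was at 6.39 and 6.01 in untreated WT and 5.96 and 6.52 in WT with LPS, so the groups overlapped, and in KO it was at 6.04 and 6.17 without and 5.69 and 5.41 with LPS. It was not called in any comparison, with LPS changes of 0.03 ± 0.24 in WT and -0.55 ± 0.24 in KO. Of the loading factors, Cdc6, the ATPase that recruits the ring, went from -2.07 and -2.16 to -4.96 and -5.25 in WT and from -2.14 and -2.42 to -5.14 and -5.19 in KO. The LPS level was 7.94-fold and 7.37-fold lower, with 1 of the WT LPS arrays well above background. A second Cdc6 probe, dimmer and well above background on 4 arrays, gave a log2 difference of -1.39 for KO against WT with LPS where the brighter one gave -0.06, and neither was called. Cdt1, the partner of CDC6 in loading, was at 5.27 and 4.88 in untreated WT, 4.98 and 5.72 in WT with LPS, 5.03 and 5.21 in untreated KO and 4.46 and 4.32 in KO with LPS. The KO samples with LPS were its lowest, at -0.96 ± 0.27 against WT with LPS, which missed the threshold (limma adjusted p = 0.0588). Gmnn, which encodes geminin, the inhibitor of CDT1, fell by 3.52 ± 0.30 in WT, from 2.80 and 2.28 to -1.36 and -0.60, and by 3.67 ± 0.30 in KO, from 2.79 and 3.01 to -0.64 and -0.91.

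Among the helicase activation genes, Mcm10 differed most between the genotypes. MCM10 (chr2:4911785-4911844) helps the loaded helicase to start unwinding. Its level was -0.01 and -0.31 in untreated WT, 1.17 and 1.21 in WT with LPS, -0.59 and -0.61 in untreated KO and -0.54 and -0.71 in KO with LPS. The WT samples with LPS stood above the other 6 samples. It rose by 1.34 ± 0.15 in WT (limma adjusted p = 0.000381), while the KO change was -0.03 ± 0.15, and with LPS it was lower in KO by a log2 difference of -1.81 ± 0.15, or 3.52-fold (limma adjusted p = 0.00183). The other 3 genes encode subunits of GINS, a ring that joins the helicase. Gins2 fell by 1.01 ± 0.13 in WT and by 0.98 ± 0.13 in KO. Gins1 was at 1.00 and 0.74 in untreated WT against 0.46 and 0.97 with LPS, groups that overlapped, and went from 1.10 and 1.16 to 0.28 and 0.26 in KO, where it fell by 0.86 ± 0.19 (limma adjusted p = 0.0113). Gins3 was not called in any comparison, its LPS changes being 0.29 ± 0.16 and 0.08 ± 0.16. Cdc45, which completes the active helicase, fell by 0.63 ± 0.15 in WT and by 0.47 ± 0.15 in KO (limma adjusted p = 0.0126 and 0.0433). Orc6, of the origin recognition complex, was not called in any comparison, with levels of 1.33 to 2.02 over the 8 samples.

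The clamp and its loader split into falls, rises and small differences. Pcna, the clamp, was at 6.52 and 6.21 in untreated WT, 6.53 and 6.81 in WT with LPS, 6.36 and 6.51 in untreated KO and 6.34 and 6.17 in KO with LPS. It was not called in any comparison, and its probe is also annotated to 2 predicted transcripts, so its signal may be shared. The loader subunit Rfc4 fell by 1.29 ± 0.18 in WT and by 1.30 ± 0.18 in KO, and Rfc2 by 0.67 ± 0.12 and 0.81 ± 0.12. Rfc3 (chr5:152448247-152450045), another loader subunit, stood at 0.28 and 0.44 in untreated WT, 1.85 and 2.27 in WT with LPS, 0.53 and 0.29 in untreated KO and 0.96 and 0.70 in KO with LPS. As with Mcm10, the WT samples with LPS were above all others. Its rise was 1.70 ± 0.20 in WT, or 3.24-fold, the KO change was 0.42 ± 0.20 (limma adjusted p = 0.000503 and 0.122), and with LPS the KO level was lower by a log2 difference of -1.23 ± 0.20. Rfc5 gave 0.27 ± 0.13 in WT and -0.36 ± 0.13 in KO with LPS, neither called.

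All the polymerase and primase genes but Pola2 fell with LPS in both genotypes. Pole2 (chr12:70307465-70308864), the second subunit of the leading-strand polymerase epsilon, was at 1.08 and 1.08 in untreated WT, 1.31 and 1.30 in untreated KO, -2.90 and -2.82 in WT with LPS and -2.17 and -2.16 in KO with LPS. Replicates lay close together in all 4 groups. It fell by 3.94 ± 0.11 in WT (15.4-fold) and by 3.47 ± 0.11 in KO (11.1-fold), and was higher in KO with LPS by 0.70 ± 0.11 (limma adjusted p = 0.0115). Pole, the catalytic subunit, fell by 2.53 ± 0.21 in WT and by 3.10 ± 0.21 in KO, from 0.27 and 0.08 to -2.60 and -2.11 and from 0.20 and -0.06 to -2.91 and -3.14. Pold1 (chr7:51788221-51788589), the catalytic subunit of the lagging-strand polymerase delta, was at 2.65 and 2.68 in untreated WT, 2.62 and 2.47 in untreated KO, 0.31 and 0.21 in WT with LPS and 1.25 and 1.17 in KO with LPS. The genotypes met in the untreated state and parted with LPS, where KO was higher by 0.96 ± 0.12 or 1.94-fold (limma adjusted p = 0.00629). Its partner Pold2 fell by 1.04 ± 0.16 and 0.60 ± 0.16. Of the genes that start new strands, Pola1 fell by 2.19 ± 0.20 in WT and by 2.97 ± 0.20 in KO. The primase genes Prim1 and Prim2 fell by 2.38 ± 0.18 and 1.44 ± 0.14 in WT and by 2.65 ± 0.18 and 1.34 ± 0.14 in KO. Pola2, the regulatory subunit of polymerase alpha, went the other way in KO, from -2.63 and -2.59 to -1.53 and -1.53, a rise of 1.08 ± 0.16 (limma adjusted p = 0.0019), while in WT it was at -2.38 and -1.99 without and -1.99 and -1.85 with LPS.

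The 4 genes of flap removal, ligation and single-strand binding fell in both genotypes. Lig1, the ligase that joins lagging-strand fragments, went from 3.77 and 3.76 to 1.76 and 1.58 in WT and from 3.42 and 3.46 to 1.41 and 1.59 in KO. It fell by 2.10 ± 0.13 in WT and fell by 1.94 ± 0.13 in KO. Rpa1, the large subunit of the single-strand binding protein RPA, went from 5.08 and 4.83 to 2.58 and 2.99 in WT and from 5.06 and 5.04 to 3.33 and 3.16 in KO. It fell by 2.17 ± 0.18 in WT and fell by 1.81 ± 0.18 in KO, and a second Rpa1 probe was called higher in KO than WT with LPS, at 0.61 against 0.46 for the brighter probe, which was not called. Rpa2 fell by 0.81 ± 0.15 and 0.56 ± 0.15. Fen1, the nuclease that trims flaps, fell by 1.00 ± 0.23 in WT and by 0.99 ± 0.23 in KO. None of the 4 was called between the genotypes, Rpa2 with LPS lying closest at 0.56 ± 0.15 (limma adjusted p = 0.05004).

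In the nucleotide supply group, 4 genes fell and 1 rose with LPS in each genotype, and 4 of the 5 differed between the genotypes with LPS. Tyms (chr5:30385578-30385637), thymidylate synthase, stood at -1.38 and -0.80 in untreated WT, -1.71 in the measured untreated KO sample, 3.33 and 3.35 in WT with LPS and 2.27 and 2.13 in KO with LPS. The LPS samples were all far above the untreated ones, and those of KO lay below those of WT. Its rise was 4.43 ± 0.22 in WT, or 21.5-fold, and 3.91 ± 0.27 in KO, or 15.0-fold (limma adjusted p = 4.05e-05 and 0.000181), and with LPS KO was lower by a log2 difference of -1.14 ± 0.22 (adjusted p = 0.0272). Tk1 (chr11:117676845-117676904), the thymidine salvage kinase, was at 0.60 and 0.43 in untreated WT, 1.05 and 1.00 in untreated KO, -2.32 and -2.35 in WT with LPS and -0.72 and -0.57 in KO with LPS. The KO samples were higher in both states, by 0.51 ± 0.13 without LPS (limma adjusted p = 0.0914) and by 1.70 ± 0.13, or 3.24-fold, with LPS (adjusted p = 0.00149). Rrm2 (chr12:25398824-25398883), the subunit of ribonucleotide reductase that limits its activity in cycling cells, was at 0.36 and 0.16 in untreated WT, -0.23 and -0.27 in untreated KO, -3.37 and -3.15 in WT with LPS and -2.35 and -2.70 in KO with LPS. The order of the genotypes was thus opposite in the 2 states, at -0.51 ± 0.17 without LPS (limma adjusted p = 0.16) and 0.74 ± 0.17 with LPS (adjusted p = 0.0341). Rrm1, the large subunit, fell by 1.59 ± 0.13 in WT and by 1.28 ± 0.13 in KO. Dut, the dUTPase that keeps uracil out of DNA, fell by 3.18 ± 0.12 in WT, from 1.40 and 1.49 to -1.81 and -1.67, and by 3.56 ± 0.12 in KO, from 1.24 and 1.25 to -2.26 and -2.36, and was lower in KO with LPS by a log2 difference of -0.57 ± 0.12 (limma adjusted p = 0.0277).

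The chromatin and ubiquitin ligase genes all fell with LPS. Dtl (chr1:193361259-193361318), the substrate adaptor of a Cullin 4 ligase that removes CDT1 during replication, was at -1.64 and -1.87 in untreated WT, -1.60 and -1.51 in untreated KO, -5.12 and -4.35 in WT with LPS and -5.70 and -5.98 in KO with LPS. It fell by 2.98 ± 0.26 in WT and by 4.28 ± 0.26, or 19.5-fold, in KO, where 1 of the LPS arrays was well above background. With LPS the KO samples were the lowest, at -1.10 ± 0.26 against WT (limma adjusted p = 0.0383). Chaf1a and Chaf1b, subunits of the histone chaperone CAF-1, fell by 2.02 ± 0.14 and 1.28 ± 0.12 in WT and by 2.08 ± 0.14 and 1.33 ± 0.12 in KO, Chaf1a from 0.51 and 0.30 to -1.65 and -1.59 in WT and from 0.10 and 0.02 to -1.95 and -2.10 in KO. Uhrf1 (chr17:56462770-56462829), which brings the maintenance methyltransferase to new DNA, was at 0.35 and 0.39 in untreated WT, -0.32 and -0.46 in untreated KO, -1.40 and -1.22 in WT with LPS and -1.04 and -0.88 in KO with LPS. It fell by 1.68 ± 0.13 in WT and by 0.57 ± 0.13 in KO. A second, dimmer Uhrf1 probe, well above background on 5 arrays, gave -0.80 in WT and 0.03 in KO, neither called.

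Of the G1/S regulators, Cdk2 and Cdc25a were higher in KO than WT with LPS. Cdk2 (chr10:128135658-128135717), the kinase that drives entry into S phase, was at -0.58 and -0.12 in untreated WT, -0.55 and -0.62 in untreated KO, -3.00 and -3.17 in WT with LPS and -1.80 and -1.72 in KO with LPS. It fell by 2.74 ± 0.18 in WT, or 6.68-fold, and by 1.18 ± 0.18 in KO, or 2.26-fold, and with LPS KO exceeded WT by 1.33 ± 0.18 (limma adjusted p = 0.00696). Cdc25a (chr9:109796331-109796390), the phosphatase that activates CDK2, was at 1.52 and 1.33 in untreated WT, 1.39 and 1.43 in WT with LPS, 1.82 and 1.80 in untreated KO and 2.61 and 2.60 in KO with LPS. WT samples overlapped between the states, and KO samples rose by 0.80 ± 0.12, leaving KO above WT by 1.20 ± 0.12 or 2.29-fold with LPS (limma adjusted p = 0.0032). Ccne1, which encodes cyclin E1, rose by 1.03 ± 0.13 in WT, from -0.07 and -0.25 to 0.80 and 0.93, and by 0.95 ± 0.13 in KO, from -0.02 and 0.00 to 0.99 and 0.90. A second Ccne1 probe gave 1.08 and 1.14 (limma adjusted p = 0.0537 and 0.052 with each probe tested by itself). Ccne2, for cyclin E2, was not well above background on any LPS array, so its levels there were not measured. It was at -5.55 and -5.78 in untreated WT and -4.27 and -6.59 in untreated KO, and was not called.

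Between the genotypes without LPS, 1 of the 43 members was called, against 3.44% of all genes tested (2.27% higher and 1.17% lower). This was Uhrf1, lower in KO by a log2 difference of -0.76 ± 0.13 or 1.69-fold (limma adjusted p = 0.0417). Its KO samples did not overlap with its WT samples. The call was lost without either untreated WT sample, either untreated KO sample or either KO sample with LPS, where the adjusted p ran up to 0.235. At an unadjusted p under 0.05 there were 10 of the 43 members, against 6052 of 27955 genes. The members' median log2 difference was 0.05, beside 0.05 over all genes. The genotypes did not overlap for 29 members, against 60.6% of all genes. The smallest p of the other roles were those of Tk1, Mcm2 at -0.38 ± 0.12, Cdc25a at 0.38 ± 0.12, Mcm10 at -0.44 ± 0.15, Pola2 at -0.43 ± 0.16, Lig1 at -0.33 ± 0.13 and Rfc5 at 0.17 ± 0.13, none called.

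With LPS, 14 of the 43 members differed between KO and WT, 9 higher and 5 lower, against 16.5% of all genes (7.89% higher and 8.57% lower). Tk1, Cdk2, Mcm3, Cdc25a, Pold1, Mcm7, Rrm2, Pole2 and Mcm2 were higher in KO, by 0.50 to 1.70, and Mcm10, Rfc3, Tyms, Dtl and Dut were lower, by a log2 difference of -0.57 to -1.81. Of the 9 that were higher, 8 had fallen with LPS in WT, and of the 5 that were lower, Dut and Dtl had fallen and Mcm10, Rfc3 and Tyms had risen. These comparisons share the WT samples with LPS. The genotypes did not overlap with LPS for 32 members, against 57.8% of all genes. That count includes Ccne2, which was not well above background on any LPS array. The split of the 14 calls moved with the values used, to 8 higher and 9 lower after normexp background correction, 15 and 2 with the deposited log2 values, and 15 and 3 with those values shifted by each array's 75th percentile. The calls of Mcm3, Mcm10, Pold1, Tk1, Cdk2 and Cdc25a were kept whichever array was left out. Those of Mcm2 and Rrm2 were lost in all 8 such fits, Mcm7 and Dtl in 7, Dut in 5, Tyms in 4, Pole2 in 2 and Rfc3 in 1. The count was 10 without either untreated WT sample, 15 and 9 without WT LPS replicates 1 and 2, 9 without either untreated KO sample, and 7 and 6 without KO LPS replicates 1 and 2.

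**Figure D3:**
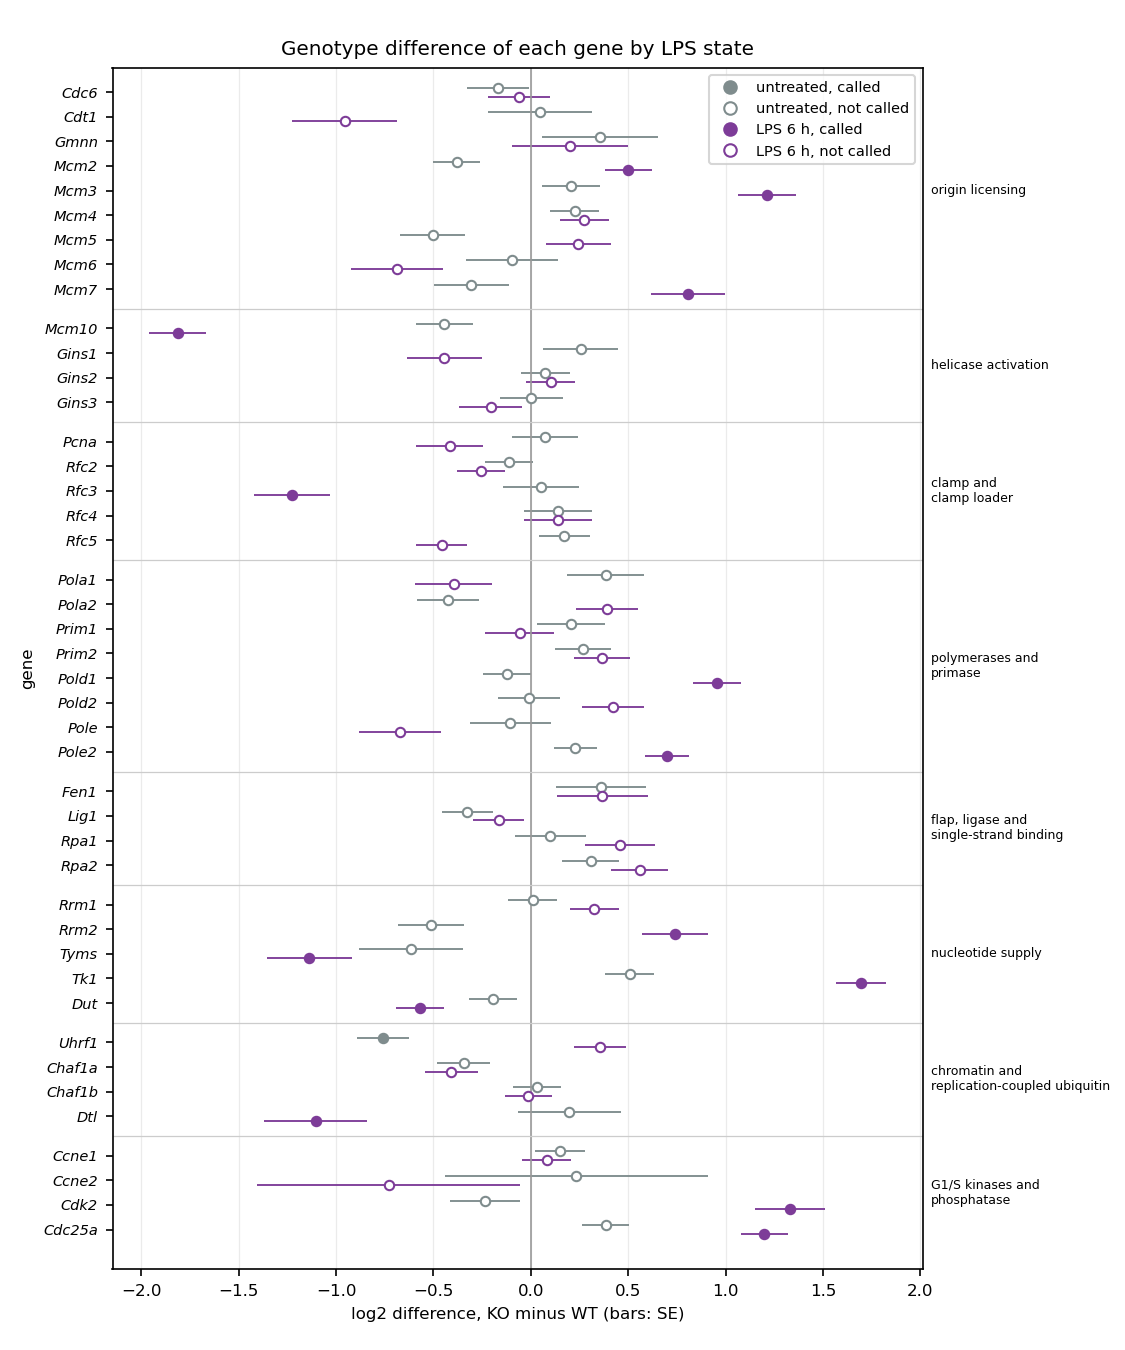
Log2 difference between KO and WT (x axis) for each gene (y axis) without LPS (grey) and with LPS (purple), with bars of 1 SE and filled symbols for called genes. The LPS values run from -1.81 for Mcm10 to 1.70 for Tk1, and Uhrf1 is the called gene without LPS.

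Markers of other blood cells also differed between the genotypes, and their part in these values was not tested. The summed linear level of 10 neutrophil markers was 56.7 to 61.2 in untreated WT and 117 to 122 in untreated KO. With LPS it was 168 to 181 in WT and 265 to 282 in KO. Of the 10, 8 were called higher and 0 lower in KO in each state. Over all genes tested, 2.27% were called higher and 1.17% lower in KO without LPS, and 7.89% and 8.57% with it. For 11 markers of myeloid precursors, cells that divide, the summed level was 54.9 to 57.6 in WT and 32.9 to 35.1 in KO without LPS. With LPS it was 72.0 to 75.8 and 50.1 to 57.5. The sum weighs bright probes most, and that of Elane was the brightest by mean level. By sign, 7 of the 11 were higher and 4 lower in KO without LPS, with a median log2 difference of 0.53. With LPS these counts were 6 and 5, with a median of 0.06. Of those 11, 3 were called higher and 2 lower in KO without LPS, and 0 higher and 3 lower with LPS. Each of these markers was well above background on at least 1 array. Summed over 7 B cell markers the level was 2.31 at most, over 7 erythroid markers 1.89 and over 6 mast cell and basophil markers 0.396. Over 10 stromal markers it was 1.80 to 2.02 without LPS, and with LPS 6.04 and 6.84 in WT and 10.9 and 11.7 in KO. Over 8 dendritic cell markers it was 145 to 248 over all samples. Over 7 T and NK cell markers it was 1.02 and 1.20 in untreated WT, 89.9 and 1.05 in untreated KO replicates 1 and 2, 22.7 and 26.7 in WT with LPS and 8.10 and 8.34 in KO with LPS. Of 6 T and NK cell markers tested, 0 were called without LPS, and with LPS 1 was higher and 1 lower in KO. The largest log2 difference among the 6 without LPS was 7.11, beside a median of 0.865, so the sum does not describe them all. Of 9 stromal markers tested, 3 were called higher and 0 lower in KO without LPS, and 1 and 1 with it. Of 7 dendritic cell markers tested, 1 was called higher and 0 lower in KO without LPS, and 0 and 3 with it.

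The LPS response itself differed between KO and WT for 7 of the 43 members, against 4.48% of all genes (1.57% with a higher and 2.92% with a lower response in KO). The fall was smaller in KO for Cdk2, with a difference of 1.56 ± 0.25 (limma adjusted p = 0.0325), Rrm2 with 1.25 ± 0.24 (adjusted p = 0.0451) and Tk1 with 1.19 ± 0.18 (adjusted p = 0.0286). So it was for Uhrf1 with 1.11 ± 0.19 (limma adjusted p = 0.0351), Pold1 with 1.08 ± 0.17 (adjusted p = 0.0323) and Mcm2 with 0.88 ± 0.17 (adjusted p = 0.046). Mcm10, which rose in WT alone, gave -1.37 ± 0.21 (limma adjusted p = 0.0281). Rfc3 at -1.28 ± 0.28 and Mcm3 at 1.01 ± 0.21 missed the threshold (limma adjusted p = 0.0576 and 0.0546). Over all members 22 responses were higher and 21 lower in KO, with a median difference of 0.01. All 7 calls were lost without any 1 of 7 of the 8 arrays (0 called, with 14 to 18 members at an unadjusted p under 0.05), and 10 were called without WT LPS replicate 1. Among the scalings and values tried, the split of 6 higher and 1 lower moved by over 10 percentage points to 6 and 2 with quantile normalization, 9 and 3 with normexp and 6 and 0 with the deposited values.

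**Figure D4:**
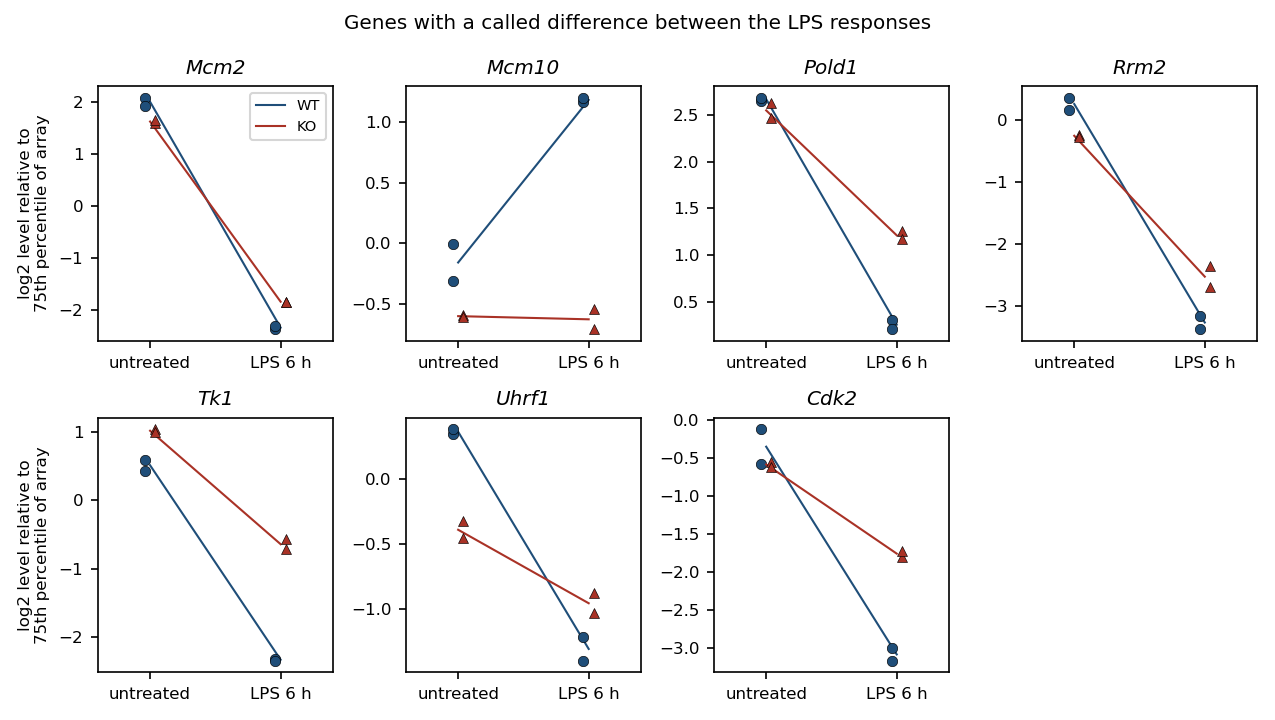
Log2 level relative to the 75th percentile of the array (y axis) of the 7 genes with a called difference in LPS response, in untreated and LPS samples (x axis), with WT in blue circles, KO in red triangles and lines joining group means of 2 samples. Mcm10 parts upward in WT, and the other 6 genes fall less in KO.

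Other genes of replication also moved with LPS. Of 52 further replication genes, 29 (55.8%) fell and 13 (25%) rose with LPS in WT, with a median log2 change of -0.71. Among the genes that fell, Clspn, Ticrr and Brca1 were not well above background on any WT LPS array. With such genes at the bound set by background, the median was -0.70 over 51 genes. In KO 26 (50%) fell and 8 (15.4%) rose, with a median of -0.64. Over all genes tested, 21.8% were lower and 36.5% higher in WT, and 20.4% and 28.7% in KO. In WT the called genes included Dna2, a flap nuclease, at -4.15 ± 0.22, and Timeless, of the fork protection complex, at 4.02 ± 0.15. In KO they included Clspn, a checkpoint adaptor, at -3.32 ± 0.72 with 1 of the 2 KO LPS arrays well above background, and Dna2 at -3.22 ± 0.22. Without LPS none of the 52 was called between the genotypes by limma (9 at an unadjusted p under 0.05, against 6052 of 27955 genes). With LPS 4 (7.69%) were higher and 7 (13.5%) lower in KO, against 7.89% and 8.57% of all genes. Of the 4, Ticrr was not well above background on any WT LPS array, and its KO level was at least 1.21-fold higher. Among the 7 was Orc1, of the origin recognition complex, at -1.16 ± 0.23. That call was lost without WT LPS replicate 1 or KO LPS replicate 2, with a difference of -0.91 in each fit. Genes whose response differed included Chek1, the replication checkpoint kinase, at -1.56 ± 0.26 with 1 KO array with LPS missing, and Dck, a nucleoside salvage kinase, at -0.96 ± 0.19. Both calls were lost without any 1 of the 4 untreated arrays, without LPS replicate 2 of either genotype, or with the replicate block. That of Chek1 was also lost without WT LPS replicate 1, and that of Dck without KO LPS replicate 1.

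Genes of the later cycle were measured for comparison. Of 29 genes of G2/M and mitosis, 26 were tested, since Cenpf, Cdc25c and Ncapg missed the filter. With LPS 20 (76.9%) fell and 5 (19.2%) rose in each genotype. The shares over all genes were 21.8% lower and 36.5% higher in WT, and 20.4% and 28.7% in KO. The median log2 changes of the 26 were -1.90 in WT and -1.39 in KO. Of the genes that fell, 4 in WT and 3 in KO were not well above background on any LPS array of that genotype, and with such genes at their bound the medians were -1.38 over 26 genes and -1.31 over 25 (Ttk has no bound in KO). Tpx2, a spindle assembly factor, rose by 5.21 ± 0.16 in WT and 3.47 ± 0.16 in KO, and the centromere histone Cenpa was at -3.36 ± 0.16 in KO. Nek2, a centrosome kinase, was at least 6.22-fold lower with LPS in WT and at least 4.89-fold lower in KO, and the spindle motor Kif11 at least 5.90-fold lower in WT (limma adjusted p = 0.000148, 8.94e-05 and 3.28e-05). Each bound sets the untreated mean against the lowest signal well above background on the LPS arrays, or the probe's own signal where that was higher. Without LPS the median log2 difference between KO and WT was -0.50, where the members' median was 0.05. In KO 4 (15.4%) were called lower and 0 higher, against 1.17% and 2.27% of all genes. Among the 4 were the kinesin Kif4 at -1.48 ± 0.22, cyclin Ccnb2 at -1.13 ± 0.18 and the mitotic kinase Plk1 at -1.08 ± 0.11. These 3 calls were lost without any 1 of the 4 untreated arrays (limma adjusted p from 0.0580 to 0.181), and that of Kif4 also without either KO LPS array (0.0540 and 0.0537) and with the replicate block (0.0594). With LPS 7 (26.9%) were called lower and 1 (3.85%) higher in KO, against 8.57% and 7.89% of all genes. Of the 7, Nek2 and Ttk were not well above background on any LPS array and passed the filter through the untreated samples, which leaves 5. Among these were Tpx2 at -2.23 ± 0.16 and the kinetochore motor Cenpe at -2.06 ± 0.33, whose call was lost without KO LPS replicate 2 (limma adjusted p = 0.0650). The response differed for Cenpe at -2.30 ± 0.46, Tpx2 at -1.75 ± 0.23 and Plk1 at 0.90 ± 0.16. Each of these calls was lost without any 1 of the 4 untreated arrays, without either KO LPS array, or with the replicate block. Those of Cenpe and Plk1 were also lost without WT LPS replicate 2.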

How the data were processed

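Groups and replicate numbers came from the sample titles. The authors obtained the intensity of each spot using Agilent Feature Extraction (10.7.3.1 in the submitters' processing notes). Its processed signal was, per the file headers, background-subtracted and detrended within each array, with surrogates for dim spots and no scaling between arrays, and probe positions are on mm9. The deposited value table holds log2 values for 26670 of 55681 probes. Its columns correlated with the log2 processed signal at 0.9955 or more and differed from it by a median of at most 0.0155, so it is on a log2 scale without centring, as judged from this match. How its probes were chosen is not given in the sources used here.

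Spots flagged as outliers were dropped, the log2 processed signal was averaged over the spots of a probe, and each array's 75th percentile was subtracted. Probes kept (39864) were well above background in both samples of some group, and a gene took its probe with the highest mean. The number of arrays limits the precision. A group-means model was fitted over the 8 arrays with limma 3.58.1 in R 4.3.3 (4 residual and 2.29 prior degrees of freedom), checked on simulated data. Genes were named by rule: per comparison and role, the 2 called members with the largest changes or that with the smallest p, and the 3 largest called genes of the other lists. The other members were added so that each is accounted for. The members and lists were chosen with earlier results of these data known. Exon and UTR annotation of the probes was not used here.

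Alternatives were quantile normalization, median centring, normexp with an offset of 50, the deposited values with and without a shift by their 75th percentile, no filter, a filter on all 8 arrays, the mean of a gene's probes, each probe by itself, only the 4 arrays compared, replicate number or slide column as a block, a trended prior, and leaving out each array. Same-numbered replicates did not deviate together (correlations of -0.188 to 0.027 between groups), and the labels do not pair them. Some genes that the naming rule selects among the other replication genes are not reported here.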

Additional observations from a re-analysis of the deposited data

Results flagged for a closer look

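For 7 members the test of the difference between the LPS responses of KO and WT passed the threshold: Cdk2 (1.56), Rrm2 (1.25), Tk1 (1.19), Uhrf1 (1.11), Pold1 (1.08), Mcm2 (0.88) and Mcm10 (-1.37), as log2 response in KO minus that in WT by limma. The groups had 2 samples each. Leaving out WT LPS replicate 1 kept 5 of the calls (not those of Mcm2 and Rrm2), and leaving out any other single array kept 0. The mean log2 spike-in signal was 11.4 to 11.8 on untreated arrays, 10.7 and 10.9 on WT and 11.1 and 11.2 on KO arrays with LPS, and its part in these differences was not tested.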

How the results depend on the processing

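The LPS counts kept within 1.5 times under every alternative run for them (the slide column block was not), at 31 to 37 members in WT and 34 to 40 in KO, while the members' median log2 change ran from -1.30 to -2.13 in WT. Leaving out single arrays gave 33 to 35 and 31 to 36. For KO against WT without LPS (1 member), 0 were called by limma with median centring, the deposited values, no filter, the mean of a gene's probes, each probe by itself, the slide column block or only the 4 arrays compared (2 to 10 at an unadjusted p under 0.05), 2 with normexp, and 0 to 1 with single arrays left out. For KO against WT with LPS (14 members), the count was 8 with no filter, 5 with the slide column block, 5 with only the 4 arrays compared, and 6 to 15 with single arrays left out. For the difference in response (7 members), it was 12 with normexp, 11 with the shifted deposited values, 11 with the filter on all 8 arrays, 11 with the trended prior, 0 with no filter (18 at an unadjusted p under 0.05), 0 with the slide column block (14 so), and 0 to 10 with single arrays left out. Where an array was left out, the lone sample was assumed to vary like the other groups. The fits with 4 arrays, or with a block, have fewer degrees of freedom; other causes were not tested. No called member changed direction in any of these fits, apart from the second Uhrf1 probe for LPS in KO.

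With replicate number as a block the counts were 0, 8, 34, 35 and 0 for the untreated genotype difference, the genotype difference with LPS, LPS in WT, LPS in KO and the difference in response, in that order. The labels do not say that the numbers pair samples.

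The main limits are 2 samples per group, whose origin is not stated, and arrays of lower signal with LPS, where Cdc6, Dtl and Ccne2 neared background. The deposited table holds 37 to 42 of the members in a comparison.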
